A study of Gallus gallus with 6 samples.

Results

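MYC, MYCN and the other genes of the MAX network were followed in the basilar papilla (BP) of the chick, the sensory epithelium with which birds hear, after its hair cells (HCs) had been damaged by gentamicin. The genes were chosen by name: MYC, MYCN, MYCL, MAX, MXD1, MXD3, MXD4, MXI1, MGA and ODC. All probe sets of the array that its annotation assigns to one of these 10 symbols were taken, whatever their values, which gave 22 of the 38382 probe sets analysed. These 22 probe sets belong to 8 of the 10 genes, out of 13009 genes with a symbol on the array. No probe set was annotated to MYCL or MAX, and both are only named here.

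Total RNA of the basal part of the BP, where HC loss mainly takes place, was measured in wild type chicks in 3 groups of 2 arrays. Age-matched chicks without treatment were the control, and the others were chicks at 48 hrs and at 72 hrs after a gentamicin injection. The methods give an age of 12 to 16 days for the chicks at treatment. Gentamicin is an aminoglycoside antibiotic that kills HCs, and in birds the supporting cells (SCs) around them divide or convert to replace them. Several papillae of a time point were pooled for each RNA, so the p values below measure the spread between 2 pools of a group and not between chicks. No array came from a chick that carried an added or deleted allele, and vehicle-injected controls were not analysed here. The comparisons ask whether the network differed from control at 48 and at 72 hrs, and whether both replicates of the study showed it.

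MYC, MYCN and MYCL encode transcription factors that bind DNA only as a pair with MAX and raise the transcription of genes for growth and division. MXD1, MXI1, MXD3 and MXD4 encode proteins that pair with the same partner and repress the same kind of genes, and MGA encodes a large repressor that also pairs with MAX. ODC encodes ornithine decarboxylase, which makes the first polyamine and is a classical direct target of MYC in mammals. In mammals, MYC is commonly induced when resting cells enter the cell cycle, and MXD1 and MXI1 when cells stop dividing and differentiate.

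MYC had 1 probe set only, and the probe sequences of the array were not used here. The study's designed RT-PCR primers for the chick MYC transcript are therefore shown. These primers played no part in the array values and were not compared with the probe set. Each is 24 bases long, is written 5′ to 3′ and in lower case without any part marked, and their names carry the positions 676 and 1163.
gg-MYC-676f: agcagcgactcggaagaagaacaa
gg-MYC-1163r: tgctcgtccgattggatagacaga

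The values are intensities, the brightness of a probe set, given below as log2. Probes differ in how well they bind, so intensities of different probe sets do not rank the amounts of their transcripts. Differences between groups were therefore taken within a probe set. Brightness was used across probe sets to pick the brightest of a gene, to split them at the median and to sum markers. The median of all probe sets lies at a mean log2 intensity of 4.76, and 13 of the 22 probe sets of the network were brighter than it. For 11 of the 22 all 6 values were above an intensity of 32, and for 5 no value was. MXD3 was the only measured gene whose probe sets were all dimmer than the median. A log2 difference between group means above 0.6 or below -0.6, the rule of the study's methods, is called a fold call here and is not a test. The test was limma on all 6 arrays with p values adjusted over the 38382 probe sets. Replicates 1 and 2 of a treated group were also set against replicates 1 and 2 of the control, which gave 2 pair differences.

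In the arrays as a whole, the summed intensity of 13 HC markers was 6429 and 6700 in the controls and 7296 to 8146 in the treated arrays. Among the 13 was CALB2, a calcium buffer, with log2 readings of 6.76 and 5.85 in the controls and 8.91 to 11.05 in the treated arrays. Without CALB2, left out after its values were seen, the sums were 6321 and 6642 in the controls, 5692 and 5806 at 48 hrs and 6491 and 7294 at 72 hrs. Like every marker sum here, these are led by the brightest probe sets. Brightest of the remaining 12 was OTOGL, with control readings of 11.72 and 11.67 in log2, lower at 48 hrs (11.42, 11.50) and 72 hrs (11.52, 11.62). Mean log2 over the 12 was 7.42 for control 1, 7.48 for control 2, 7.46 and 7.28 for the 48 hr arrays, and 7.64 and 7.65 for the 72 hr arrays. By this mean, replicate 1 of 48 hrs lay between the controls. The nicotinic receptor gene CHRNA9 was -0.98 and -1.26 from control at the earlier and later time. It was the only lower fold call of the 13 HC markers, beside 2 higher calls at 48 hrs and 4 at 72 hrs. The median differences of the 13 were -0.05 at 48 hrs and 0.33 at 72 hrs. The sum over 12 SC markers ranged from 39737 to 42497. At 72 hrs 10 of 11 genes of dividing cells had a fold call and 6 passed limma, and their sum was 4141 and 2406 against 698 to 828 in the other 4 arrays. All 4 measured genes of the W chromosome, which female birds alone carry, were lower at 72 hrs in limma, with sums of 28.8 and 40.9 against 2404 to 4765, so the sex of the pooled chicks and the 72 hr time cannot be told apart. No member of the network lies on the W or Z chromosome in the RefSeq annotation of GRCg7b. For the genes of the lists around the network this was not looked up. The sum over 8 connective tissue markers was 3094 on control 1 and 514 to 895 elsewhere, that over 13 leukocyte markers ranged from 1244 to 2092, that over 5 red blood cell markers from 152 to 1022, and that over 6 markers of neurons and glia from 2641 on control 1 to 5399 on replicate 1 of 48 hrs. The log2 excess of the 3′ over the 5′ probe set of GAPDH is a sign of RNA integrity. It was higher on every replicate 2 array (3.31 to 4.97) than on every replicate 1 array (2.05 to 3.003). The excess was highest on replicate 2 of 72 hrs for EF1A (3.94, others 1.59 to 3.01) and actin (5.03, others 3.51 to 3.97). EF1A and actin did not put every replicate 2 array above every replicate 1 array. Replicate 2 of 72 hrs also lay at -41.4 on the first principal component, against -9.63 to 19.5 for the other arrays. The part of these array properties in the results below was not tested unless a value is given.

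MYC did not separate the groups at either time. Its probe set (Gga.1030.1.S1_at) read 7.18 and 7.74 in the controls, 7.43 and 6.98 at 48 hrs and 7.98 and 7.25 at 72 hrs. The highest value was replicate 1 of 72 hrs and the lowest was replicate 2 of 48 hrs, and the 3 groups overlapped. In intensity the same arrays ranged from 126.5 to 253.3. At 48 hrs the mean was -0.25 from control (SE 0.34, 95% interval -1.05 to 0.54, adjusted p = 1 from limma), and at 72 hrs it was 0.16 above control (SE 0.34, interval -0.63 to 0.95, adjusted p = 0.997 from limma). The pairs disagreed in sign at both times, with 0.25 and -0.75 at 48 hrs and 0.80 and -0.48 at 72 hrs. Replicate 1 of 72 hrs was thus past the fold rule and replicate 2 lay below its control. Between the treated groups both pairs pointed upwards from 48 to 72 hrs (0.56 and 0.27), with a mean of 0.41 (SE 0.34, adjusted p = 1 from limma) and overlapping groups. With 2 arrays a group the intervals include differences of MYC past the fold rule, downwards at 48 hrs and in either direction at 72 hrs.

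MYCN, the paralog of MYC that is known above all from embryonic and progenitor tissues, was the member with the widest difference among the probe sets brighter than the median. Its brighter probe set (Gga.15288.1.S1_at) read 6.27 and 5.19 in the controls, 6.02 and 6.88 at 48 hrs and 7.11 and 6.62 at 72 hrs. The 72 hr arrays were both above the controls, while the 48 hr arrays overlapped with the controls and with the 72 hr arrays. The difference at 72 hrs was 1.13 (SE 0.46, 95% interval 0.08 to 2.19), a ratio of 2.195 on the intensity scale, and both pairs passed the fold rule (0.84 and 1.43). Its unadjusted p from limma was 0.0383 and its adjusted p from limma was 0.996. The value depended on the low control 2: without it the difference was 0.60, and without control 1 it was 1.67. At 48 hrs the mean difference was 0.72 (SE 0.46, adjusted p = 1 from limma), carried by replicate 2 with 1.68 against -0.25 in replicate 1. Without replicate 2 of 48 hrs it was 0.29, and without control 2 it was 0.18.

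A second probe set of MYCN (Gga.5109.1.S1_s_at) lay close to the median of all probe sets, and 5 of its 6 intensities were under 32. It read 4.45 and 4.62 in the controls, 4.92 and 4.25 at 48 hrs and 5.64 and 4.89 at 72 hrs. Again both 72 hr arrays were above both controls, and the 48 hr arrays lay on either side of them. At 72 hrs the difference was 0.73 (SE 0.43, adjusted p = 0.996 from limma) with pairs of 1.19 and 0.26. It was 0.35 without replicate 1 of 72 hrs, and 0.32 with intensities under 32 set to 32. At 48 hrs the difference was 0.05, with pairs of 0.47 and -0.38. At 72 hrs the wider pair difference was in replicate 2 for the first probe set and in replicate 1 for the second. On both, replicate 1 was the higher 72 hr array, while control 2 was the lower control on the first and the higher on the second. Over the 6 arrays the log2 values of both probe sets had a correlation of 0.34. The mean of both probe sets put MYCN at 0.93 above control at 72 hrs and at 0.38 at 48 hrs.

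**Figure D1:**
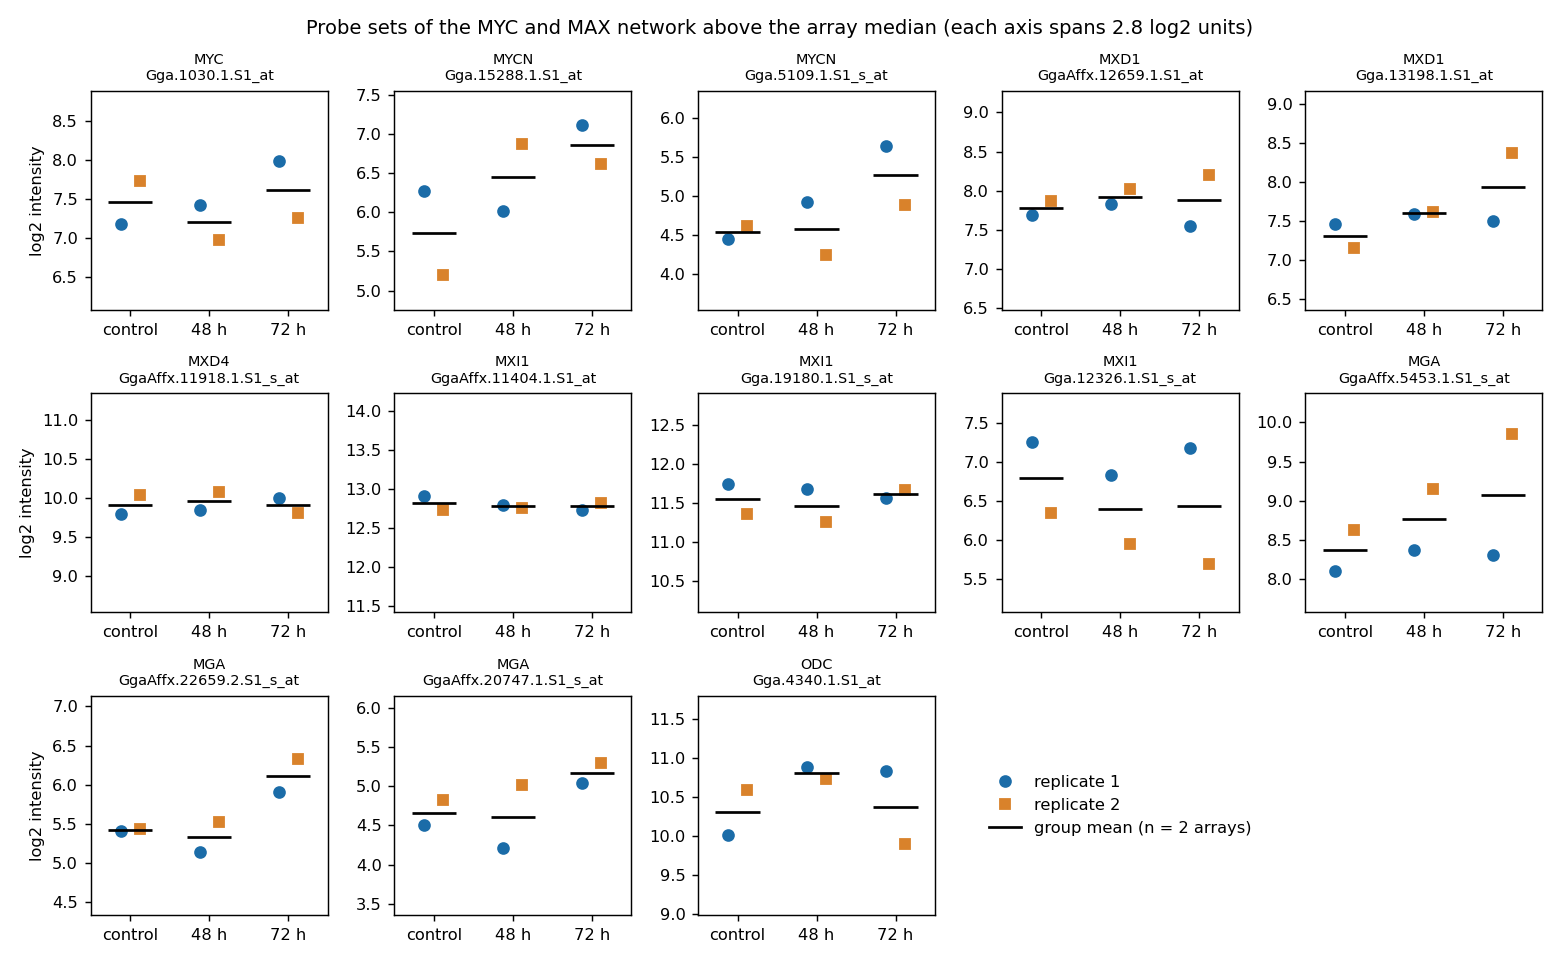
Log2 intensity (y axis) of the 13 probe sets of the network that were brighter than the median of all probe sets, by group (x axis), with circles for replicate 1, squares for replicate 2 and lines for the mean of 2 arrays. Both 72 hr arrays lie above both controls for both MYCN probe sets, while the MYC values of the 3 groups overlap.

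Among the genes that oppose MYC, the probe sets of MXI1 and MXD4 with the brightest signal had nearly the same values in all groups, MXD1 differed with the probe set used, and MXD3 was dim. None of their probe sets passed limma at either time.

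MXI1, a repressor induced in many differentiating cells of mammals, had 4 probe sets. The brightest (GgaAffx.11404.1.S1_at) read 12.91 and 12.73 in the controls, 12.80 and 12.75 at 48 hrs and 12.73 and 12.82 at 72 hrs. All 6 values fell within less than the fold rule, and the difference was -0.05 at 48 hrs (SE 0.14, 95% interval -0.37 to 0.28) and -0.04 at 72 hrs (interval -0.37 to 0.29), each with adjusted p = 1 from limma. These intervals lie inside the limits of the fold rule. The second (Gga.19180.1.S1_s_at) differed by -0.09 at 48 hrs and 0.06 at 72 hrs, with intervals from -0.57 to 0.39 and from -0.42 to 0.54.

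The third MXI1 probe set (Gga.12326.1.S1_s_at) followed the replicate number more than the treatment. It read 7.25 and 6.35 in the controls, 6.84 and 5.95 at 48 hrs and 7.18 and 5.70 at 72 hrs. Replicate 2 was the lower array in each group, and these were the arrays with the higher 3′ excess of GAPDH. The differences were -0.40 at 48 hrs and -0.36 at 72 hrs (SE 0.56 for both), with pairs of -0.41 and -0.40 at 48 hrs and -0.08 and -0.64 at 72 hrs. The last and dim one (Gga.10569.1.S1_at) had opposite pairs at 72 hrs (-1.20 and 1.30).

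MXD4 was measured by a bright probe set (GgaAffx.11918.1.S1_s_at) that read 9.80 and 10.04 in the controls, 9.84 and 10.08 at 48 hrs and 10.002 and 9.81 at 72 hrs. The groups overlapped throughout, and the differences were 0.04 at 48 hrs (SE 0.20, interval -0.41 to 0.50) and -0.01 at 72 hrs (interval -0.47 to 0.44). A dim probe set of MXD4 (Gga.4558.2.S1_s_at) gave 0.19 and 0.37 with pairs of opposite sign at both times.

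MXD1, the founding member of this repressor family, had 2 bright probe sets whose 72 hr values did not match. The brighter (GgaAffx.12659.1.S1_at) read 7.69 and 7.87 in the controls, 7.83 and 8.02 at 48 hrs and 7.55 and 8.20 at 72 hrs, with differences of 0.14 and 0.09 (SE 0.28) and overlapping groups. The other (Gga.13198.1.S1_at) read 7.47 and 7.16 in the controls, 7.59 and 7.62 at 48 hrs and 7.50 and 8.37 at 72 hrs. Here the treated arrays were above both controls at both times, by a small margin in all but replicate 2 of 72 hrs.

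The second MXD1 probe set differed from control by 0.29 at 48 hrs (SE 0.32, adjusted p = 1 from limma) and by 0.62 at 72 hrs (SE 0.32, unadjusted p = 0.0908 and adjusted p = 0.996 from limma). The pairs at 72 hrs were 0.03 and 1.22, and without replicate 2 of 72 hrs the difference was 0.18. That array was the one that stood apart on the first principal component and had the highest 3′ excess of EF1A and actin. A dim MXD1 probe set (GgaAffx.8816.1.S1_s_at) had intensities from 2.12 to 7.45, and its differences of 0.72 and 0.87 also came mainly from replicate 2, with 1.26 and 1.41 against 0.18 and 0.34 in replicate 1.

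MXD3, which in mammals is found in dividing precursor cells, had a single dim probe set (GgaAffx.1911.1.S1_at) that read 4.98 and 4.48 in the controls, 3.85 and 4.54 at 48 hrs and 4.81 and 5.06 at 72 hrs. Its groups overlapped with control at both times, with differences of -0.54 and 0.20 (SE 0.42). From 48 to 72 hrs both pairs were positive (0.96 and 0.52) and the groups did not overlap, with a mean of 0.74 (SE 0.42, adjusted p = 1 from limma). In 5 of its 6 arrays the intensity was under 32.

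MGA had 8 probe sets, the most of any member, and 3 of them were brighter than the median. At 72 hrs these 3 were above control in both pairs. Array by array, the brightest (GgaAffx.5453.1.S1_s_at) read 8.10 and 8.63 in the controls, 8.37 and 9.16 at 48 hrs and 8.30 and 9.85 at 72 hrs. Replicate 1 of 72 hrs lay between the controls, so the groups overlapped. Its difference was 0.40 at 48 hrs and 0.71 at 72 hrs (SE 0.50, adjusted p = 0.996 from limma at 72 hrs), with pairs of 0.20 and 1.22 at 72 hrs, and without replicate 2 of 72 hrs it was -0.06.

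A second MGA probe set (GgaAffx.22659.2.S1_s_at) read 5.41 and 5.43 in the controls, 5.15 and 5.52 at 48 hrs and 5.91 and 6.32 at 72 hrs. The 72 hr arrays were above all 4 other arrays. The difference from control was 0.70 at 72 hrs (SE 0.33, 95% interval -0.07 to 1.46, unadjusted p = 0.0678 and adjusted p = 0.996 from limma), with pairs of 0.50 and 0.89, and -0.09 at 48 hrs. Left-out arrays moved the 72 hr difference between 0.49 and 0.91. From 48 to 72 hrs it was 0.78 (SE 0.33, unadjusted p = 0.0453 and adjusted p = 1 from limma), with pairs of 0.76 and 0.81.

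The third MGA probe set above the median (GgaAffx.20747.1.S1_s_at) read 4.51 and 4.82 in the controls, 4.21 and 5.01 at 48 hrs and 5.04 and 5.30 at 72 hrs. It lay close to the median of all probe sets, and 3 of its 6 intensities were under 32. The 72 hr arrays were again above all others, the lower of them by a margin of less than 0.03 over replicate 2 of 48 hrs. Differences were -0.05 at 48 hrs and 0.51 at 72 hrs (SE 0.41, adjusted p = 0.996 from limma), with pairs of 0.53 and 0.48 at 72 hrs. With intensities under 32 set to 32, the 72 hr difference was 0.17. The log2 values of the latter pair of probe sets had a correlation of 0.88 over the 6 arrays, and with the brightest they had 0.68 and 0.73.

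The 5 dim MGA probe sets went both ways. At 48 hrs Gga.10585.1.A1_at was 1.45 above control, with pairs of 1.61 and 1.29. Gga.10585.1.S1_s_at was -0.93 from control at 48 hrs, with pairs of -0.80 and -1.06. At 72 hrs the pairs of each had opposite signs. Their names mark them as designs from 1 cluster but differ in A1 and S1, and whether both read the same strand was not tested. One intensity of GgaAffx.5453.1.S1_at was exactly 1, and its pairs at 72 hrs were 1.15 and 0.81. Over all 8 probe sets the mean for MGA was 0.05 at 48 hrs and 0.44 at 72 hrs. Probe sets annotated to the same gene are not replicates of the treatment.

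**Figure D2:**
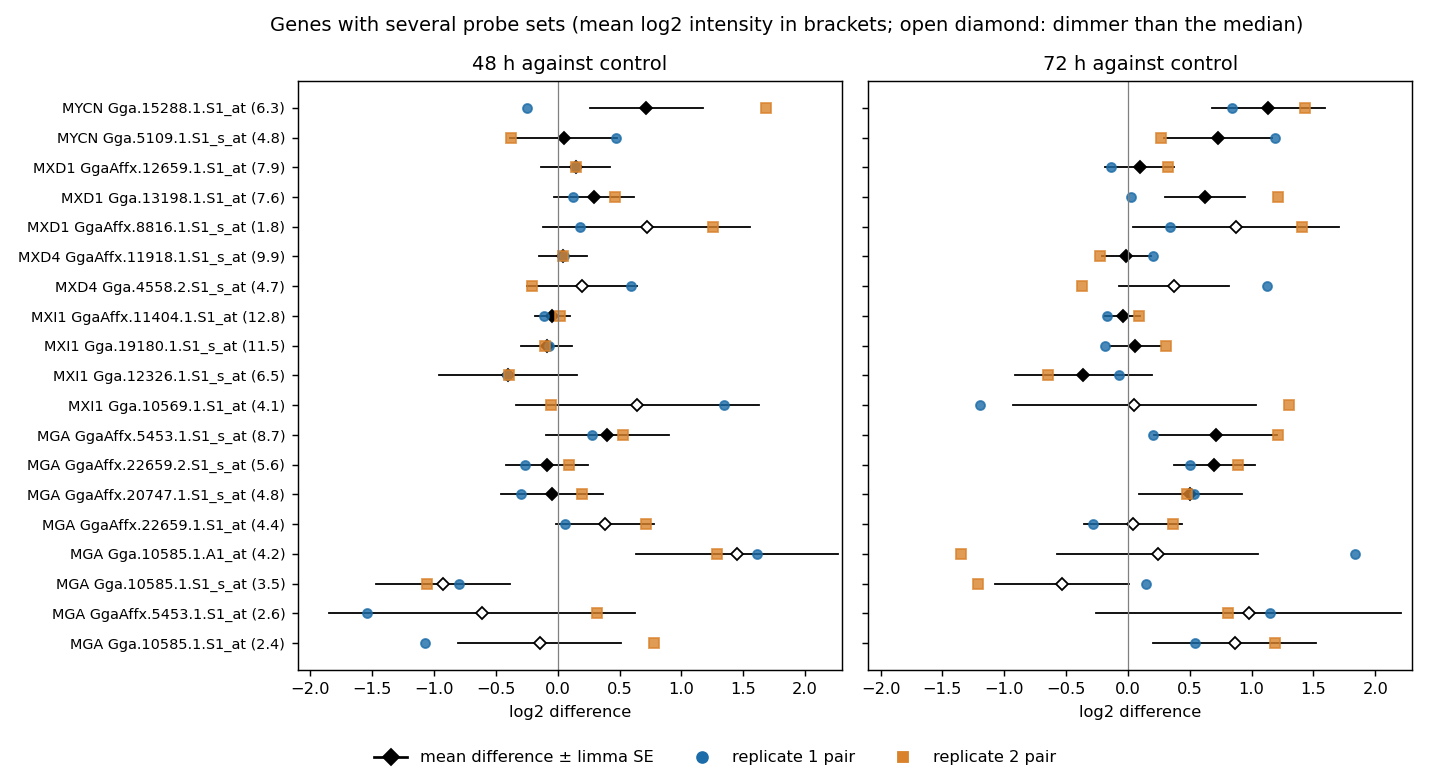
Log2 differences from control (x axis) at 48 hrs (left) and 72 hrs (right) for each probe set of the 5 genes with more than 1 (y axis, mean log2 intensity in brackets), as means of both pairs with the limma SE (diamonds, open below the median) and for replicate 1 (circles) and replicate 2 (squares). The 3 MGA probe sets above the median lie at 0.51 to 0.71 at 72 hrs, the lowest of these for one close to the median. Those of MXI1 and MXD4 with the brightest signal lie at about 0.

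ODC stood above both controls at 48 hrs and not at 72 hrs. Its probe set (Gga.4340.1.S1_at) read 10.02 and 10.58 in the controls, 10.88 and 10.72 at 48 hrs and 10.83 and 9.90 at 72 hrs. The 48 hr arrays and replicate 1 of 72 hrs were the highest, and replicate 2 of 72 hrs was the lowest of the 6. At 48 hrs the difference was 0.50 (SE 0.32, 95% interval -0.25 to 1.25, adjusted p = 1 from limma) with pairs of 0.87 and 0.14, under the fold rule. Without control 1 it was 0.22, and without control 2 it was 0.79. At 72 hrs it was 0.07 (SE 0.32, adjusted p = 1 from limma), and the pairs had opposite signs (0.82 and -0.69). These are the signs of MYC at 72 hrs (0.80 and -0.48), while at 48 hrs MYC and ODC differed in sign in replicate 2. Over the 6 arrays the log2 values of MYC and ODC had a correlation of 0.42, and those of MYC and MYCN of -0.15.

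Counted over the network, 0 of 22 probe sets passed limma in any of the 3 comparisons, where 0% of all probe sets passed at 48 hrs, 0.0886% at 72 hrs and 0.0495% between 48 and 72 hrs. At an unadjusted p under 0.05 from limma, 1039, 1401 and 1286 of all 38382 probe sets were found in these comparisons. Of the 22, 0 were found at 48 hrs, 1 at 72 hrs (MYCN) and 1 between the treated groups (MGA). By the fold rule 4 were higher and 2 lower at 48 hrs, beside 10.9% higher and 8.75% lower among all probe sets. At 72 hrs 8 were higher and 0 lower, beside 14% and 9.16% among all. After quantile normalization this was 7 higher and 1 lower, and after centring the arrays on their medians 6 higher and 1 lower. Of 13009 genes, each by its brightest probe set, 1207 were higher and 815 lower at 72 hrs. These counts were 977 and 1007 after quantile normalization and 892 and 1113 after centring. From 48 to 72 hrs 5 were higher and 1 lower, where 12.2% and 10.2% were.

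Restricted to probe sets above the median, the fold rule found 1 of 13 higher and 0 lower at 48 hrs, where 2.61% and 2.5% of all such probe sets were. At 72 hrs it found 5 of 13 higher and 0 lower, where 6.47% and 3.95% were. These 5 were both probe sets of MYCN, 1 of MXD1 and 2 of MGA, so they stand for 3 genes. With each gene represented by its brightest probe set, 1 of 8 genes was higher at 48 hrs (MYCN) and 2 at 72 hrs (MYCN and MGA), and 0 were lower, beside 6.82% of 13009 genes higher and 5.29% lower at the first time and 9.28% and 6.26% at the second.

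Both replicate pairs passed the fold rule upwards for 1 probe set at 48 hrs (MGA, dim; 4.02% of all probe sets) and for 2 at 72 hrs (MYCN Gga.15288.1.S1_at and a dim one of MGA; 4.95%). Downwards they did so for 1 at 48 hrs (MGA, dim; 2.9%) and for 0 at 72 hrs (2.94%). Between 48 and 72 hrs it was 2 upwards (the second probe sets of MYCN and MGA; 4.22%) and 0 downwards (3.49%). Groups that did not overlap were found for 4 probe sets upwards and 1 downwards at 48 hrs, where 16% and 13.5% of all were, and for 6 upwards and 0 downwards at 72 hrs, where 17.2% and 12.2% were. Both treated groups were compared with the same controls. With 2 arrays against 2, an exact permutation test of a single probe set cannot go below a two-sided p of 0.333.

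**Figure D3:**
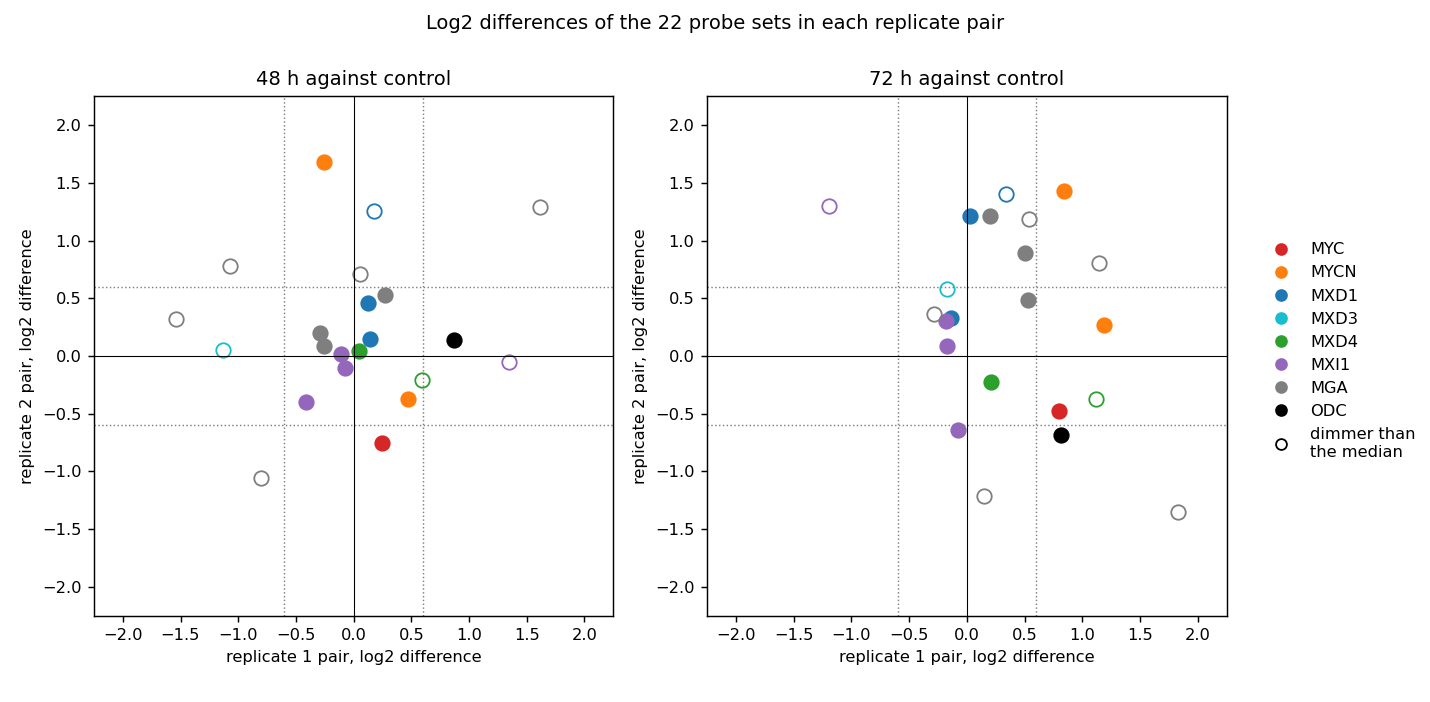
Log2 difference from control in the replicate 2 pair (y axis) against that in the replicate 1 pair (x axis) for all 22 probe sets, at 48 hrs (left) and 72 hrs (right), coloured by gene, with open circles below the median intensity and dotted lines at 0.6 and -0.6. Of the filled points, only MYCN lies beyond both upper lines, at 0.84 and 1.43 at 72 hrs, and MYC and ODC lie on opposite sides of 0 in the replicates at 72 hrs.

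The genes around the network were described by 6 lists: partners and relatives of MAX, MYC cofactors and turnover, polyamine enzymes, growth genes raised by MYC, genes lowered by MYC in mammals, and direct inducers of MYC transcription. No gene of these lists passed limma at 48 or 72 hrs. Examples were taken from genes of each list with wide differences among those above the median intensity, though not by strict rank. MNT, MLX, SKP2, AMD1 and OAZ1 were added for their role. Over all 13009 genes, as given above, 6.82% had a higher and 5.29% a lower fold call at 48 hrs, against 9.28% and 6.26% at 72 hrs, and counts on short lists are read beside these shares.

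Of 8 other network genes measured, 1 had a higher and 1 a lower fold call at 48 hrs and 1 a higher one at 72 hrs, with medians of 0.12 and -0.03, beside medians of 0.01 at both times over all 13009 genes. MNT, another repressor that pairs with MAX, was dim, with 0.73 and 0.62. MLX, the MAX-like partner of glucose-sensing factors, differed by 0.10 and -0.09. MLXIP, one of those factors, read 8.66 and 8.49 in the controls, 8.95 and 9.28 at 48 hrs and 8.31 and 8.48 at 72 hrs, so that both 48 hr arrays were above all others (0.54 from control, SE 0.22, adjusted p = 1 from limma). BHLHE40, a repressor of the clock that binds similar DNA, was -0.48 from control at 72 hrs (pairs -0.14 and -0.81).

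Of 17 cofactors and turnover genes, 0 had a fold call at 48 hrs and 1 at 72 hrs, with medians of 0.07 and 0.06. The call was TRRAP, a scaffold of the acetyltransferase complexes that MYC recruits, which read 8.42 and 8.62 in the controls and 8.72 and 9.81 at 72 hrs (0.75, SE 0.35, adjusted p = 0.996 from limma). As for MXD1 and MGA, replicate 2 of 72 hrs was the high array. KAT2A, the acetyltransferase GCN5, was low on that array (9.67 against 10.60 to 11.39 on the other 5). SKP2, part of a ubiquitin ligase that targets MYC, was higher in both pairs at 48 hrs (0.26 and 0.13) and at 72 hrs (0.35 and 0.24), under the fold rule.

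Of 14 polyamine genes, ODC among them, 0 had a fold call at 48 hrs and 1 at 72 hrs, with medians of 0.01 and 0.09. SAT1, which acetylates polyamines for their breakdown, read 10.69 and 10.91 in the controls, 11.24 and 11.39 at 48 hrs and 11.20 and 10.92 at 72 hrs. The 48 hr arrays were both above the controls by a similar amount (pairs of 0.55 and 0.48, adjusted p = 1 from limma). ARG2, an arginase that supplies ornithine to ODC, had the call at 72 hrs with 0.71 (pairs 0.38 and 1.05, SE 0.34). SRM, which makes spermidine, was lower in both pairs at both times, with means of -0.42 and -0.45 and pairs of -0.07 and -0.77 and of -0.11 and -0.78. AMD1, which supplies the aminopropyl group, differed by -0.23 and -0.25, and the antizyme OAZ1, which sends ODC to degradation, by -0.19 and -0.11.

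Of 59 growth genes raised by MYC in mammals, such as those for ribosome assembly, chaperonins and nutrient transport, 54 were brighter than the median. By the fold rule 2 of the 59 were higher and 0 lower at 48 hrs. At 72 hrs 5 were higher and 2 lower, beside 9.28% and 6.26% of all genes. The medians were 0.12 at 48 hrs (0.14 in replicate 1 and 0.07 in replicate 2) and 0.04 at 72 hrs (0.14 and 0.01). CCT3, a subunit of the chaperonin that folds actin and tubulin, was the only one of the 59 past the rule in both pairs at 72 hrs, with 6.38 and 6.34 in the controls, 6.48 and 7.26 at 48 hrs and 7.14 and 7.38 at 72 hrs (0.90, SE 0.32, adjusted p = 0.996 from limma). The lactate transporter gene SLC16A1 (0.70) and the amino acid transporter gene SLC7A5 (0.64) were higher in both pairs as well, and UBTF, a factor of RNA polymerase I, only in replicate 2 (-0.15 and 1.69). NHP2, a protein of box H/ACA particles, was 0.70 above control at 48 hrs (pairs 0.60 and 0.81) and back among the controls at 72 hrs. PHB (prohibitin) and WDR12, a ribosome assembly factor, were the 2 lower calls at 72 hrs, both at -0.63, with pairs of -0.06 and -1.19 for PHB and of -0.13 and -1.12 for WDR12. At 48 hrs their means were -0.58 and -0.57.

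Of 15 genes that MYC lowers in mammals, 0 were higher and 2 lower at 48 hrs and 0 higher and 3 lower at 72 hrs, beside 5.29% and 6.26% lower among all genes, with medians of -0.11 and -0.07. CLU, a secreted chaperone, read 7.002 and 6.92 in the controls, 6.42 and 6.50 at 48 hrs and 5.81 and 6.17 at 72 hrs, so that the 3 groups did not overlap in this order (-0.97 at 72 hrs, SE 0.28, adjusted p = 0.996 from limma). FN1 (fibronectin) was lower in both pairs at both times, with -1.29 and -0.96. COL1A1 was -2.20 from control at 72 hrs with a reading of 9.93 on control 1 against 5.36 on control 2, and control 1 was the array with the high connective tissue sum. In RNA from whole tissue pieces, fewer cells of a type and less RNA per cell cannot be told apart.

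Of 13 direct inducers of MYC transcription, 2 were higher at 48 hrs (EGR1 and E2F1) and 2 at 72 hrs (E2F1 and the dim FOS), beside 6.82% and 9.28% among all genes, and 0 were lower. The medians were 0.20 and 0.23. EGR1, an immediate early gene, read 9.96 and 9.75 in the controls, 11.18 and 11.06 at 48 hrs and 11.16 and 9.70 at 72 hrs. The 48 hr arrays and replicate 1 of 72 hrs were higher than the rest by more than 1 log2 unit, with 1.27 at 48 hrs (SE 0.41, adjusted p = 1 from limma) and pairs of 1.20 and -0.05 at 72 hrs. These 3 arrays were also the 3 highest for ODC.

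E2F1, a factor that turns on genes of DNA synthesis, was the gene of these lists with the lowest adjusted p. It read 6.11 and 6.24 in the controls, 6.85 and 6.77 at 48 hrs and 8.003 and 7.91 at 72 hrs, so that no groups overlapped. The difference was 0.63 at 48 hrs (SE 0.24, adjusted p = 1 from limma) and 1.78 at 72 hrs (SE 0.24, pairs 1.89 and 1.66), where its adjusted p from limma was 0.0834, above the threshold of 0.05. The dividing cell genes were highest on the same arrays, with a median of 0.49 at 48 hrs and 2.60 at 72 hrs. The 72 hr pairs of MYC (0.80 and -0.48) had no such common sign, whereas those of MYCN did (0.84 and 1.43). That MYCN difference (Gga.15288.1.S1_at) had an adjusted p of 0.996 from limma, and a link to the dividing cell genes was not tested.

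**Figure D4:**
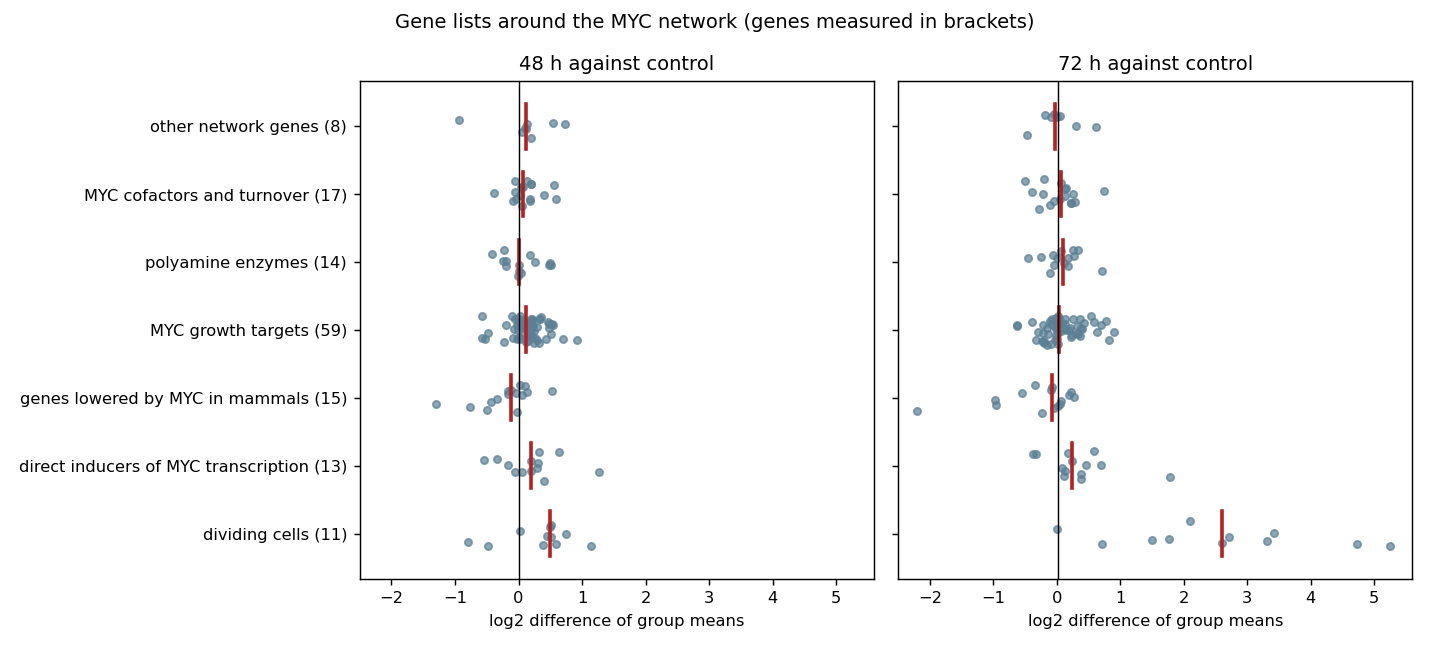
Log2 difference of group means from control (x axis) for each measured gene (points, spread vertically for sight only) of 6 lists around the MYC network and of the dividing cell genes (y axis, number measured in brackets), at 48 hrs (left) and 72 hrs (right), with the list median (red) and the median of all genes (black line). The medians of the 6 lists lie between -0.11 and 0.23, and that of the dividing cell genes lies at 2.60 at 72 hrs.

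The genes whose values over the 6 arrays were most like those of a member were found by the correlation of log2 values over 9336 other genes above the median. For MYC they were RABGGTB (0.99), RABEPK, CCDC91, SPARCL1 and IFT57 (0.98). For MYCN they were MFSD2A (0.97), ZW10, MYBPHL, FAM110D and LMCD1 (0.95), and for ODC they were CCZ1 (0.99), COQ6, NSUN2, VOPP1 and COQ7 (0.98). With 6 arrays and this many genes such values are a description only. Within the network the highest correlation between brightest probe sets was that of MXD1 and MGA (0.92), both highest on replicate 2 of 72 hrs.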

How the data were processed

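The authors deposited intensity values on a linear scale. Per the methods dChip normalized the arrays and computed expression, whereas the submitters' notes name MAS5. The array was the Affymetrix GeneChip Chicken Genome Array. Of 38535 probe sets 153 control probe sets were left out, and log2 was taken with no further normalization. Array medians were 26.49 to 30.18 and 51.7% to 54.4% of values lay under 32, so dim probe sets are imprecise and 2 arrays a group limit the precision. Symbols came from the platform annotation (27178 probe sets with 1 symbol, 177 with several, 11180 with none) and chromosomes from RefSeq for GRCg7b.

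limma 3.58.1 in R 4.3.3 (lmFit, then eBayes with an intensity trend) was run on the 6 arrays together, with 3 residual and 4.75 prior degrees of freedom. The p values were adjusted by Benjamini-Hochberg and read at 0.05. In a test of the fit on simulated data, most added changes of 1 log2 unit at 72 hrs were missed. A probe set that did not pass is therefore not shown to be unchanged. Figures were drawn with matplotlib 3.10.9. A list gene was represented by its brightest probe set. Genes named from a list were examples with wide differences above the median intensity, not chosen by strict rank or fixed number. Others were added for their role after their values were seen. Replicate numbers follow the titles. By the source names, both control arrays and both 48 hr arrays would be replicate 2. Members and lists were chosen with earlier results of these data known. Quantile normalization, median centring, a floor of 32, a pseudocount of 16, a filter, the prior, the arrays fitted, a replicate block and left-out arrays were tried. The zebrafish experiments were not analysed here.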

Additional observations from a re-analysis of the deposited data

How the results depend on the processing

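No probe set of the network passed limma under any alternative, so 0 was the count also with the replicate block, where the adjusted p of MYCN (Gga.15288.1.S1_at) at 72 hrs was 0.749. Same-numbered arrays deviated together (correlations of 0.398, 0.287 and 0.488 over 19191 probe sets), and the first principal component was lower for replicate 2 in every group (-0.49, -9.63 and -41.4 against 19.5, 17.9 and 14.1). With 2 pairs a comparison and labels that disagree, whether the numbers pair the arrays was not settled.

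With a floor of 32, 1 was higher and 0 lower at 48 hrs, 4 higher at 72 hrs, and 1 higher and 0 lower from 48 to 72 hrs. A pseudocount of 16 gave 1 and 0, 2 higher, and 1 and 0, and the filter at the median 1 and 0, 5 higher, and 2 and 0. Quantile normalization gave 7 higher and 1 lower at 72 hrs, where MXD1 Gga.13198.1.S1_at was 0.57. Median centring gave 6 and 1, with MXD1 at 0.52 and MGA GgaAffx.22659.2.S1_s_at at 0.599, and 2 lower from 48 to 72 hrs. Of all 13009 genes, each by its brightest probe set, 1207 were higher and 815 lower at 72 hrs without these changes. The floor left 415 and 267, the pseudocount 407 and 255, quantile normalization 977 and 1007, and median centring 892 and 1113. At 48 hrs 887 and 688 became 167 and 161 with the floor and 153 and 143 with the pseudocount. With 1 array left out the calls of the network ranged from 2 to 5 higher and 1 to 4 lower at 48 hrs, 5 to 9 and 0 to 3 at 72 hrs, and 2 to 9 and 1 to 3 between these times. Counts over all genes were not made for left-out arrays.

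Of single differences under an alternative, 674 moved by less than the replicate spread, 84 by more, and 7 of those past the fold rule changed sign. The 674 include 66 each from the prior, the arrays fitted and the replicate block, and 39 from the filter. These settings leave a difference of group means as it is, so their part of the count says nothing about stability. With the floor of 32, 16 moved by more, 1 changed sign and 49 moved by less. Quantile normalization moved 66 by less and 0 by more. Without replicate 1 of 72 hrs 14 moved by more and 30 by less. From 48 to 72 hrs MGA Gga.10585.1.A1_at changed to 0.0355 with the floor and ranged from -2.61 to 0.19 with arrays left out. Left-out arrays put MGA GgaAffx.5453.1.S1_at at -2.45 to 1.23 at 48 hrs and at -0.25 to 3.43 from 48 to 72 hrs, MXD1 GgaAffx.8816.1.S1_s_at at -0.0251 to 1.46 at 48 hrs, and MGA GgaAffx.5453.1.S1_s_at at -0.0627 to 1.48 at 72 hrs. The cause was not tested. MYC ranged without single arrays between -0.53 and 0.02 at 48 hrs, between -0.20 and 0.53 at 72 hrs, and between 0.05 and 0.78 from 48 to 72 hrs.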
